A study of Sus scrofa with 21 samples.

Results

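Chaperones are the proteins that help other proteins to fold, and the unfolded protein response is the signalling system that adjusts their supply in the endoplasmic reticulum (ER). In the cytosol, HSP70 proteins bind unfolded chains with the help of DNAJ co-chaperones, HSP90 proteins finish the folding of signalling proteins, and the ring-shaped chaperonin TRiC folds actin and tubulin. In the ER, HSPA5 (BiP) and HSP90B1 (GRP94) fold secreted and membrane proteins, misfolded chains are sent out for degradation, and the sensors ERN1 (IRE1), ATF6 and PERK answer an overload, ERN1 by splicing the mRNA of the transcription factor XBP1. In mitochondria, HSPA9 pulls proteins in and the HSPD1 and HSPE1 chaperonin folds them.

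These genes were examined in whole blood of 10 DD and 11 LW pigs. DD (SLAdd) pigs are minipigs of an inbred line that is homozygous at the swine leukocyte antigen (SLA) complex, and LW (Large White) pigs, a conventional breed, served as controls. All animals were 60 days old and ate a standard diet at will. The DD pigs came from 5 litters and the LW pigs from 6. All DD pigs belonged to the 1 line, so that its background and its SLA haplotype cannot be told apart. Total RNA of each pig was measured on 1 array of a custom Agilent design for the pig, in 1 colour and on 3 chips, which held 3 DD and 4 LW arrays, 4 and 4, and 3 and 3.

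The members were all genes whose name on the array, in capitals, belongs to the heat shock proteins (HSPA, HSPB, HSPD, HSPE, HSPH, HSP70 and HSP90), the DNAJ and CCT families with TCP1, the protein disulfide isomerases (PDIA) and ERO1, the ER proteins CALR, CANX, HYOU1, SEL1L, SYVN1, EDEM and DERL, or the transducers ATF4, ATF6, ATF6B, XBP1, ERN1 and DDIT3. They numbered 75 of 16009 gene names on the array and were carried by 184 oligos. After the dimmest 25% of oligos had been removed, 67 of the 75 were tested among 13524 genes. The 8 others, DNAJC2, DNAJB5, DNAJC5B, DNAJC6, DNAJC10, CCT6B, HSPB6 and HSPA12A, had no oligo above the filter.

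Values are the log2 intensities that the authors had background corrected and quantile normalised, averaged over the oligos of a gene. A difference, log2 FC, is DD minus LW from a limma model that adjusts for the chip and lets pigs of the same sow be correlated, and a gene was called when its Benjamini-Hochberg adjusted p over all 13524 genes was below 0.05. Values of single pigs are given after removal of the chip effect. The precision is limited by the number of arrays.

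The DD arrays were dimmer than the LW arrays, and this differed by chip. Array brightness, defined as the 75th percentile of an array's processed signal on the log2 scale, averaged 7.53 ± 0.54 (SD, n = 10) for DD and 8.22 ± 0.38 (SD, n = 11) for LW arrays. Its means in DD and LW pigs were 7.95 against 8.02 on the first chip, 7.55 against 8.31 on the second and 7.09 against 8.36 on the third. The study's methods mention a technical bias of the third chip. Because brightness moved with breed, its correlation with the called members and their values with brightness in the model are given beside them.

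Of the 67 members tested, 18 were lower and 4 were higher in DD pigs. The share called was 32.8%, against 23.5% of all genes. The share lower was 26.9%, against 12.6% of all genes, and the share higher was 5.97%, against 10.9%. The median log2 FC was -0.24 over the members and -0.08 over all genes, and 51 of 67 members had a negative value (58.5% of all genes did). The lower genes were found in all compartments, with 7 of 32 cytosolic, 8 of 26 ER and 3 of 8 mitochondrial members, while 3 of the 4 higher genes were ER members and the other was cytosolic. The groups of pigs overlapped in part for all of them, and in 8 of the 18 lower genes every DD pig was below the LW median. This was also so in 2 of the 45 members not called. The same shares over all genes were not computed, so that these counts cannot be set against them.

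**Figure D1:**
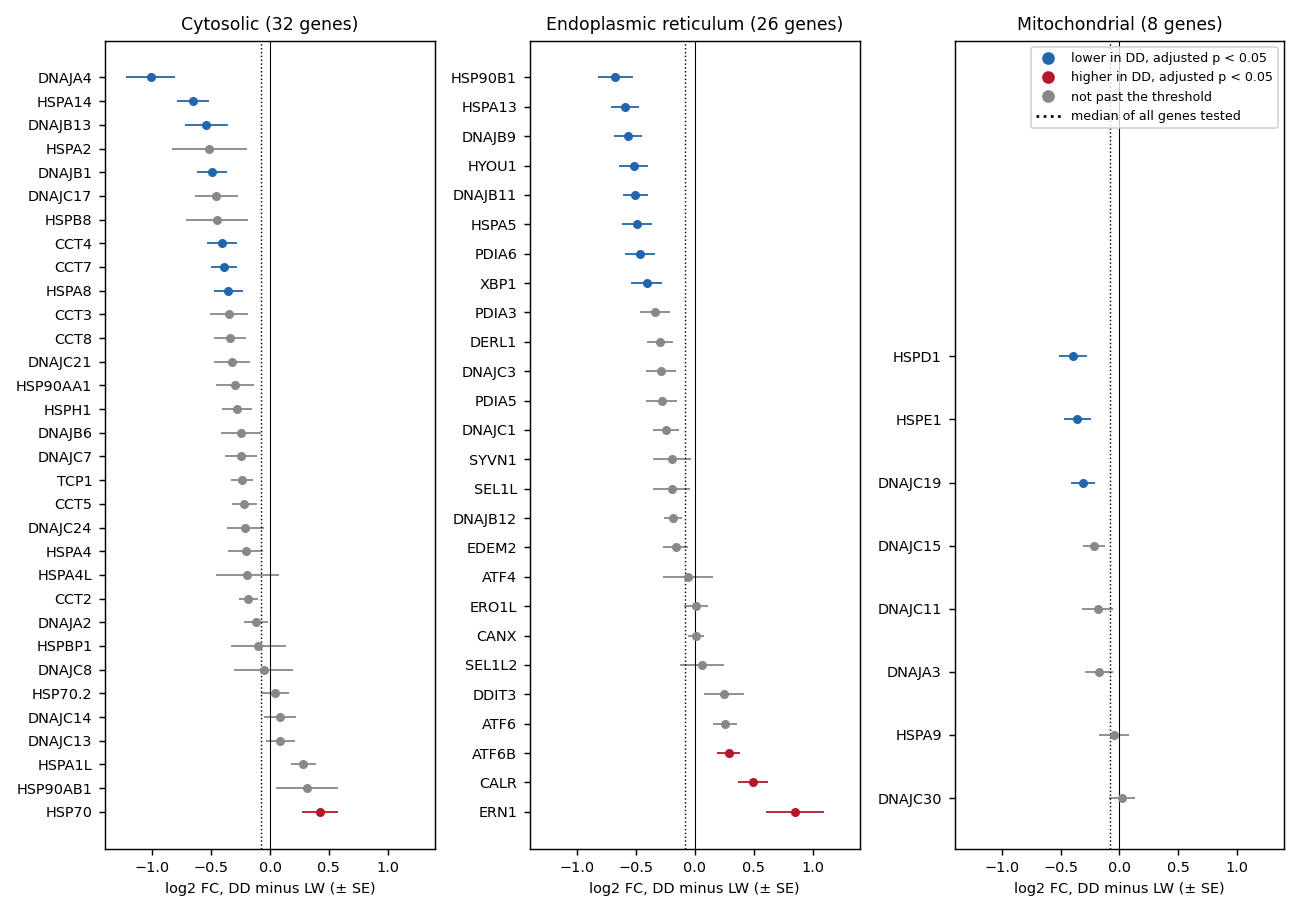
Log2 FC (DD minus LW, horizontal axis, ± SE) of the 66 members placed in the cytosol, ER or mitochondria, 1 row per gene. Blue points are lower and red points higher in DD pigs at an adjusted p below 0.05, grey points did not pass, and the dotted line is the median of all genes (-0.08). Most points lie left of 0 in each compartment, while ERN1, CALR and ATF6B stand on the right among ER genes.

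These calls depended on chip 3 and on brightness. The median difference of the members within a chip was -0.01, -0.28 and -0.48 for chips 1 to 3, against -0.01, -0.07 and -0.11 for all genes. Without chip 3, 0 members were called (12 had an unadjusted p below 0.05 by limma), and 1.18% of all genes were. With array brightness as a covariate in limma, again 0 members were called (10 at an unadjusted p below 0.05), and 2.28% of all genes were. The median log2 FC of the 18 lower genes was -0.49 with all arrays, -0.34 without chip 3 and -0.18 with brightness in the model.

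Leaving out single animals also moved the count of lower genes, to 30 without DD pig 6, 11 without DD pig 21, 23 or LW pig 22, and 8 without LW pig 18. The share of all genes called, 23.5% with all animals, moved as well. It was 37.6% without DD pig 6, 10.9% without DD pig 21 and 14.5% without DD pig 23. For LW pigs it was 13.6% without pig 22 and 8.07% without pig 18. The higher genes numbered 1 without DD pig 21 or LW pig 18, and 2 without DD pig 1, 8, 19 or 23 or LW pig 5, 12 or 14. In the fits with 2 higher genes, 14.5% to 19.1% of all genes were called.

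The array reads each gene through oligos of 60 bases, and the sequences of those on which a result turns are shown here, 5′ to 3′, from the annotation of the scanner files. Whether each oligo reads the mRNA strand of its gene was not checked. Among the 32 members with over 1 oligo above the filter, 38 pairs of oligos of the same gene shared a run of at least 20 identical bases. In 37 of the 38 pairs both oligos had a log2 FC of the same sign, and the median distance between their values was 0.04. The exception was a pair of XBP1 oligos, which share 36 bases (in capitals) and differed by 1.06, with -0.50 ± 0.28 (SE, adjusted p = 0.203) for the first and 0.55 ± 0.19 (adjusted p = 0.0435) for the second.
XBP1, oligo with the lower value in DD pigs: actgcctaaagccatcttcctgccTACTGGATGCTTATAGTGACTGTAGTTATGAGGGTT
XBP1, oligo with the higher value in DD pigs: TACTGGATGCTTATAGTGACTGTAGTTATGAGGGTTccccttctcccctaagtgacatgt
A pair of HSPD1 oligos with 51 shared bases (in capitals) is shown for contrast, with values of -0.27 ± 0.12 (adjusted p = 0.106) and -0.31 ± 0.10 (adjusted p = 0.0349).
HSPD1, first oligo: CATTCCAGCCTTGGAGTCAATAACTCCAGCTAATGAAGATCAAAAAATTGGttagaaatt
HSPD1, second oligo: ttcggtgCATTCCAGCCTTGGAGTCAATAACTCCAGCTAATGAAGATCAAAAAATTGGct
The sensor ERN1 was read by a single oligo, which the array's annotation assigns through a human protein entry.
ERN1: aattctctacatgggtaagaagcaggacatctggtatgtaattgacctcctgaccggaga
The most strongly lowered of the 9 oligos of HSP90B1, and a CALR oligo that was higher in DD pigs, complete the set.
HSP90B1: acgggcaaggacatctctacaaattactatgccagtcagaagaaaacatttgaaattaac
CALR: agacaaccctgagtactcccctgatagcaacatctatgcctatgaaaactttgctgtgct

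Of the 6 ER chaperones tested, HSP90B1, HSPA13, HYOU1 and HSPA5 were lower, CALR was higher and CANX did not pass. Among all genes 23.5% were called, 12.6% lower and 10.9% higher. HSP90B1 (GRP94, chr5:80511513-80531016 of Sscrofa11.1), the HSP90 of the ER, ranged from 8.79 over a median of 9.10 to 9.99 in DD pigs and from 9.20 over 9.98 to 10.33 in LW pigs. In 6 of 10 DD pigs it was below every LW pig, and DD pig 6 alone was above the LW median. Its log2 FC was -0.67 ± 0.15 (SE, adjusted p = 0.0052 by limma), which makes it 1.59-fold higher in LW pigs. All 9 of its oligos were called lower, with values from -0.73 to -0.59.

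HSPA5 (BiP), the HSP70 of the ER and the regulator that holds the stress sensors inactive, was 9.74, 10.07 and 10.77 at the lowest, the median and the highest DD pig, and 10.15, 10.66 and 11.01 in LW pigs. The log2 FC was -0.49 ± 0.13 (SE, adjusted p = 0.0128), and 7 DD pigs were below every LW pig. HYOU1 (GRP170), which exchanges the nucleotide of BiP, had 9.71, 10.12 and 10.66 in DD pigs and 10.28, 10.73 and 11.22 in LW pigs (log2 FC -0.52 ± 0.13, adjusted p = 0.00929). Every DD pig was below the LW median of HYOU1. For both genes the difference was small on chip 1, at -0.05 each, and -0.80 and -0.81 on chip 3.

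HSPA13 (STCH), an HSP70-like protein of the microsomal fraction, behaved differently across chips. Its lowest, median and highest values were 7.00, 7.29 and 7.79 in DD pigs and 7.58, 7.89 and 8.30 in LW pigs, with 7 DD pigs below every LW pig. The log2 FC was -0.59 ± 0.12 (SE, adjusted p = 0.00226), the lowest p of all members, and the differences on chips 1, 2 and 3 were -0.58, -0.35 and -0.93. After breed and chip had been removed, HSPA13 correlated with array brightness at r = 0.16 over the 21 pigs, while HSP90B1, HSPA5 and HYOU1 had r = 0.61, 0.68 and 0.67. With brightness in the model HSPA13 was at -0.53 (adjusted p = 0.0764), HSP90B1 at -0.35 (adjusted p = 0.388), HSPA5 at -0.20 (adjusted p = 0.662) and HYOU1 at -0.23 (adjusted p = 0.563).

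The lectin chaperones CALR and CANX, which hold glycoproteins during folding, were not called lower in DD pigs, unlike BiP. CALR (calreticulin, chr2:66098263-66102074) was 10.81, 11.35 and 11.62 at the lowest, median and highest DD pig and 10.28, 10.79 and 11.09 in LW pigs. All 10 DD pigs were above the LW median, and 7 were above every LW pig. CALR had a log2 FC of 0.50 ± 0.13 (SE, adjusted p = 0.0145), positive on each chip (0.61, 0.22 and 0.74), and r = -0.08 with brightness. Its 3 oligos gave 0.15, 0.55 and 0.79, of which the last 2 were called. The first, which did not pass (adjusted p = 0.384), was the brightest, with a mean of 14.41 against 9.88 and 8.74. The call of CALR was lost with the brightest oligo alone and without chip 1, but in 0 of the 21 fits without 1 animal. With brightness in the model CALR was at 0.46 (adjusted p = 0.233).

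CANX (calnexin), the membrane-bound relative of CALR, had a log2 FC of 0.01 ± 0.07 (SE, adjusted p = 0.917). This mean joined oligos that disagreed, with -0.24 and -0.19, neither called, and 0.45 (adjusted p = 0.0217). The oligo with the positive value was the dimmest, with a mean of 5.56 over the arrays, against 10.51 and 10.69 for the others. It had r = -0.90 with array brightness, and the others 0.64 and 0.30. For each of the brighter oligos 9 of 10 DD pigs were below the LW median.

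**Figure D2:**
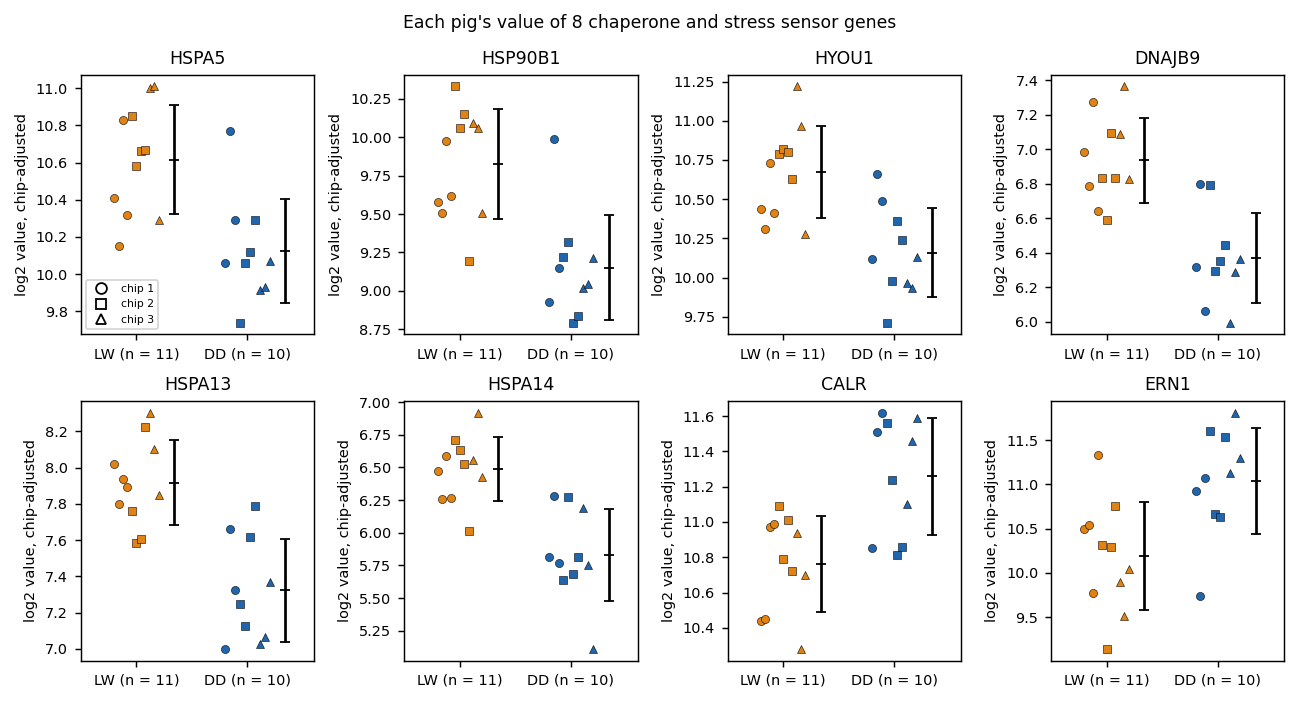
Chip-adjusted log2 value (vertical axis) of each pig for 8 members, with LW pigs in orange and DD pigs in blue, the marker shape giving the chip, and the bar giving mean ± SD. The DD pigs lie mostly below the LW pigs in the first 6 genes and above them for CALR and ERN1, with overlap in each panel.

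The ER co-chaperones of the DNAJ type, most of which work with BiP, had a negative value in 5 of 5 members tested, and 2 were called. Of all genes 58.5% were negative and 23.5% were called. DNAJB9 (ERdj4), which also draws BiP to the sensor ERN1, was 5.99, 6.34 and 6.80 at the lowest, median and highest DD pig and 6.59, 6.84 and 7.37 in LW pigs. Each DD pig was below the LW median, and 8 were below every LW pig. The log2 FC was -0.57 ± 0.12 (SE, adjusted p = 0.00318), with -0.53, -0.37 and -0.88 on the 3 chips, r = 0.35 with brightness, and -0.43 (adjusted p = 0.151) with brightness in the model.

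DNAJB11 (ERdj3), a secreted co-chaperone, was 7.56, 7.76 and 8.60 in DD pigs and 8.09, 8.36 and 8.48 in LW pigs at the lowest, median and highest. Of the DD pigs 9 were below every LW pig, and the remaining one, pig 6, was above every LW pig. DNAJB11 differed by -0.50 ± 0.11 (SE, adjusted p = 0.00449), and it had r = 0.59 with brightness and was at -0.30 (adjusted p = 0.271) with brightness in the model. DNAJC3 (p58IPK), which restrains the kinase PERK, had -0.29 (adjusted p = 0.1), DNAJC1 -0.24 (adjusted p = 0.112) and DNAJB12 -0.19 (adjusted p = 0.0852), and none of these passed.

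Of the enzymes that form and shuffle disulfide bonds, PDIA6 was lower and the other 3 tested did not pass (12.6% of all genes were lower). PDIA6, which also damps the ERN1 sensor, had a log2 FC of -0.47 ± 0.13 (SE, adjusted p = 0.0181), and every DD pig was below the LW median of 8.34. Its r with brightness was 0.79, and its value with brightness in the model was -0.11 (adjusted p = 0.866). PDIA3 (ERp57), the partner of CALR and CANX, was at -0.34 (adjusted p = 0.0542), PDIA5 at -0.28 (adjusted p = 0.12) and the oxidase ERO1L, which recharges the isomerases, at 0.01 (adjusted p = 0.944). None of the 5 members of ER-associated degradation passed (23.5% of all genes did). DERL1, a channel component for misfolded proteins, was at -0.30 (adjusted p = 0.0524), with all DD pigs below the LW median. The ligase SYVN1 (HRD1) was at -0.20 (adjusted p = 0.377), its partner SEL1L at -0.19 (adjusted p = 0.369) and EDEM2, which trims the sugars of misfolded glycoproteins, at -0.16 (adjusted p = 0.272). SEL1L2, a relative of SEL1L, was at 0.06 (adjusted p = 0.827).

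Of the 6 sensors and transcription factors of the response among the members, ERN1 and ATF6B were higher and XBP1 was lower (10.9% and 12.6% of all genes). Their median log2 FC was 0.25, with medians of 0.02, 0.01 and 0.55 on chips 1 to 3. ERN1 (IRE1, chr12:14881913-14963290), the kinase and RNase that splices XBP1 mRNA, was 9.74, 11.10 and 11.81 at the lowest, median and highest DD pig and 9.14, 10.29 and 11.33 in LW pigs. In 9 of 10 DD pigs it was above the LW median, and 3 were above every LW pig. The log2 FC was 0.85 ± 0.25 (SE, adjusted p = 0.0213), equal to 1.81-fold, the largest positive value among the members. Chips 1 to 3 gave 0.04, 0.98 and 1.59. The ERN1 value fell with array brightness at r = -0.89 over the 21 pigs, and with brightness in the model the log2 FC was 0.03 (adjusted p = 0.989).

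XBP1 (chr14:46011239-46016526), the transcription factor that raises chaperone genes once its mRNA is spliced, was lower as a mean of 8 oligos. Its values were 8.37, 8.91 and 9.28 at the lowest, median and highest DD pig and 8.58, 9.21 and 9.80 in LW pigs, with 5 LW pigs above every DD pig. XBP1 differed by -0.41 ± 0.13 (SE, adjusted p = 0.0323), a call that was lost in 11 of the 21 fits without 1 animal. Its mean had r = 0.52 with brightness and was at -0.17 (adjusted p = 0.822) with brightness in the model. Of its oligos 7 had negative values, from -0.68 to -0.46, of which 4 were called, and 1 was called higher, the oligo printed second above. That oligo was 10.65, 11.58 and 12.28 at the lowest, median and highest DD pig and 10.40, 10.99 and 11.58 in LW pigs, with 5 DD pigs above every LW pig. It had differences of -0.04, 0.41 and 1.41 on the 3 chips and r = -0.86 with brightness. Over the 21 pigs, with breed and chip removed, it correlated with the 7 others at r between -0.76 and -0.21, while those correlated with each other at a median of 0.70.

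ATF6 and ATF6B, membrane-bound factors that are cut free under stress, were at 0.25 ± 0.10 (SE, adjusted p = 0.0699) and 0.29 ± 0.10 (adjusted p = 0.0383), the latter being called. ATF6B lies at chr7:24153551-24171743, in the class III part of the SLA complex in which the DD line is homozygous. It was 10.43, 10.86 and 11.15 in DD pigs and 10.32, 10.52 and 10.75 in LW pigs at the lowest, median and highest, with 7 DD pigs above every LW pig. Its 2 oligos gave 0.13 (adjusted p = 0.401) and 0.44 (adjusted p = 0.0463), and the second had r = -0.74 with brightness. The ATF6B difference was -0.01 on chip 1, its r with brightness was -0.57, and it was 0.11 (adjusted p = 0.836) with brightness in the model. Its call was lost in 14 of the 21 fits without 1 animal. The 3 oligos of ATF6 gave -0.14, 0.18 and 0.72, of which the last was called higher (adjusted p = 0.0088). DDIT3 (CHOP), which promotes death under lasting stress, was at 0.25 (adjusted p = 0.289). Of its 3 oligos 1 was called higher (0.46, adjusted p = 0.0191), and the others, which share all 60 bases, gave 0.18 and 0.11. ATF4, the factor translated when PERK is active, was at -0.05 (adjusted p = 0.861).

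**Figure D3:**
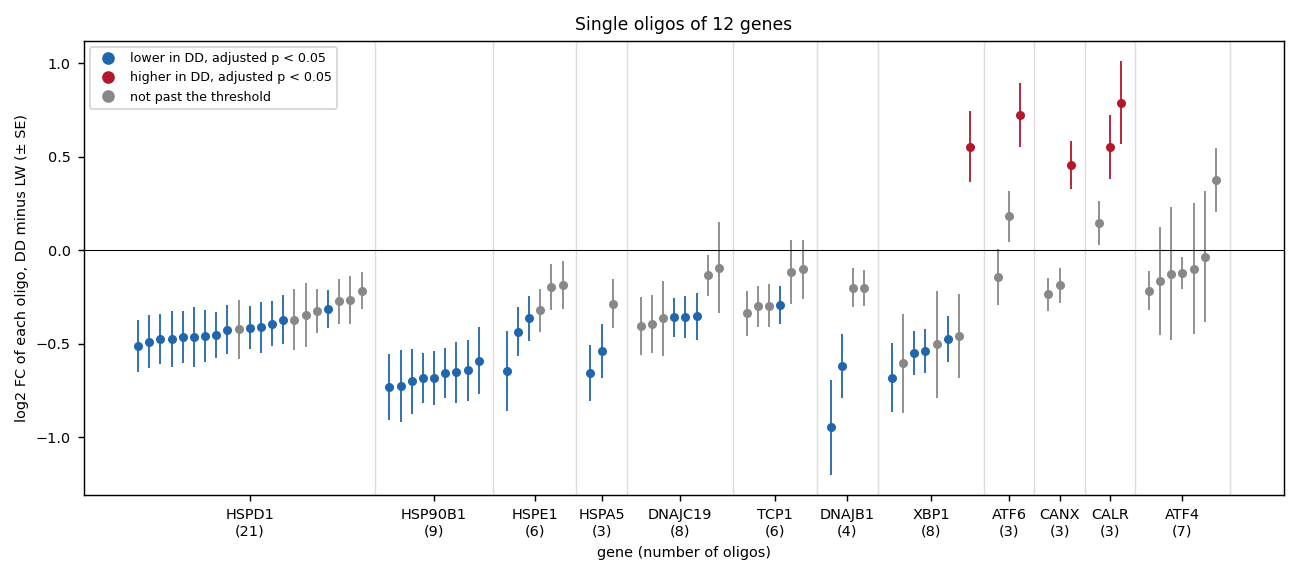
Log2 FC (DD minus LW, vertical axis, ± SE) of every oligo above the filter for 12 members, ordered by value within a gene, with the number of oligos in brackets. The 21 HSPD1 and 9 HSP90B1 oligos are all below 0, while XBP1, ATF6, CANX and ATF4 have oligos on both sides.

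In the cytosol, 3 of the 9 members of the HSP70 family were called, 2 lower and 1 higher (23.5% of all genes were called, 12.6% lower and 10.9% higher). HSPA14 (HSP70L1), which works at the ribosome, was 5.11, 5.79 and 6.28 at the lowest, median and highest DD pig and 6.02, 6.53 and 6.92 in LW pigs. All DD pigs were below the LW median and 7 were below every LW pig. HSPA14 differed by -0.66 ± 0.13 (SE, adjusted p = 0.00305), both oligos were called lower, and the chips gave -0.44, -0.62 and -0.95. It had r = 0.69 with brightness and was at -0.34 (adjusted p = 0.265) with brightness in the model.

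HSPA8 (HSC70), the constitutive HSP70 of the cytosol, had a log2 FC of -0.35 ± 0.12 (SE, adjusted p = 0.0429), with 0.11 on chip 1 and -0.63 and -0.50 on the others. It was 12.36, 12.58 and 13.28 in DD pigs and 12.40, 12.98 and 13.29 in LW pigs at the lowest, median and highest, so that the ranges nearly coincided. HSPA8 had r = 0.71 with brightness and was at -0.06 (adjusted p = 0.962) with brightness in the model. Its call was lost in 15 of the 21 fits that left out 1 animal. The gene named HSP70 on the array, whose accession RefSeq lists as HSPA6, an inducible HSP70 on chromosome 4, was higher in DD pigs at 0.43 ± 0.15 (SE, adjusted p = 0.0476). All DD pigs were above its LW median, and it was higher on each chip (0.60, 0.51 and 0.11), but its call was lost in 19 of the 21 such fits. It was at 0.60 (adjusted p = 0.117) with brightness in the model.

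The HSP70 genes of the SLA complex did not pass. HSP70.2, which RefSeq gives HSPA1A and HSPA1B as synonyms (chr7:23925929-23927854), was at 0.04 (adjusted p = 0.802), and HSPA1L, whose interval (chr7:23909960-23938678) overlaps it, was at 0.28 (adjusted p = 0.0572) with 9 of 10 DD pigs above the LW median. The 4 others, HSPA2, HSPA4, HSPA4L and HSPH1, the last 3 being or resembling nucleotide exchange factors of HSP70, had values from -0.51 to -0.19 and did not pass. HSP90AA1, the inducible cytosolic HSP90, was at -0.29 (adjusted p = 0.176) and HSP90AB1, the constitutive one, at 0.31 (adjusted p = 0.385), the latter with DD pig 10 at 8.64 and the 9 other DD pigs at 6.38 or less. HSP90AB1 was read by 1 oligo, whose strand was not checked, so that these values may not be those of its mRNA. HSPB8, a small heat shock protein, was well above background on no DD array and 1 LW array. DNAJC24 and HSPA4L were likewise well above background on no DD array. The cofactor HSPBP1 was at -0.10 (adjusted p = 0.767).

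Of the 12 cytosolic DNAJ co-chaperones tested, 10 had a negative value and 3 were lower (58.5% and 12.6% of all genes). The share called was 25%, against 23.5% of all genes. DNAJA4, a type I co-chaperone, was 4.02, 5.04 and 5.64 at the lowest, median and highest DD pig and 5.18, 5.88 and 6.94 in LW pigs. In 9 of 11 LW pigs it was above every DD pig. The log2 FC of -1.01 ± 0.21 (SE, adjusted p = 0.0033), equal to 2.02-fold more in LW pigs, was the largest of all members in this fit. Its size depended on the processing, with the log2 FC of DNAJA4 at -0.69 in values recomputed from the scanner files, -0.70 with 75th percentile scaling or without the filter and -0.28 with a background offset of 50. It rests on 1 dim oligo, well above background on 5 of 10 DD and 11 of 11 LW arrays. DNAJA4 had r = 0.73 with brightness and was at -0.44 (adjusted p = 0.375) with brightness in the model.

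DNAJB1 (HSP40), the main partner of inducible HSP70, was 8.65, 9.12 and 9.57 in DD pigs and 8.98, 9.58 and 9.92 in LW pigs at the lowest, median and highest, and all DD pigs were below the LW median. Its log2 FC was -0.49 ± 0.13 (SE, adjusted p = 0.0134), and the 4 oligos were spread from -0.95 to -0.20 with 2 called. On chip 1 the difference was -0.07, on chip 3 it was -1.04. DNAJB1 had r = 0.64 with brightness and was at -0.21 (adjusted p = 0.66) with brightness in the model. DNAJB13, known from sperm and cilia, was 5.44, 6.33 and 7.13 in DD pigs and 6.62, 6.89 and 7.44 in LW pigs, with a log2 FC of -0.54 ± 0.18 (SE, adjusted p = 0.038). In 4 DD pigs it was above the LW median. Its r with brightness was 0.59, its value with brightness in the model was -0.14 (adjusted p = 0.926), and its call was lost in 9 of the 21 fits without 1 animal. The 9 others, DNAJA2, DNAJB6, DNAJC7, DNAJC8, DNAJC13, DNAJC14, DNAJC17, DNAJC21 and DNAJC24, had values from -0.46 to 0.09. DNAJC25-GNG10, a readthrough transcript that was not placed in a compartment, was at 0.32 (adjusted p = 0.119).

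Of the 8 TRiC subunit genes named on the array, the 7 that could be tested all had negative values, from -0.41 to -0.19, with a median of -0.34. CCT4 and CCT7 were called, which is 28.6% of the 7, against 23.5% of all genes, of which 58.5% were negative. CCT7 was 12.56, 12.90 and 13.34 at the lowest, median and highest DD pig and 12.75, 13.28 and 13.60 in LW pigs (log2 FC -0.39 ± 0.11, adjusted p = 0.0195 by limma). CCT4 was 9.95, 10.41 and 11.07 in DD pigs and 10.38, 10.88 and 11.09 in LW pigs (log2 FC -0.41 ± 0.13, adjusted p = 0.027). For each of these subunits 9 of 10 DD pigs were below the LW median, and the ranges overlapped. TCP1 (-0.24, adjusted p = 0.0658), CCT8 (-0.34, adjusted p = 0.074), CCT3 (-0.35, adjusted p = 0.108), CCT5 (-0.22, adjusted p = 0.127) and CCT2 (-0.19, adjusted p = 0.0974) did not pass.

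The TRiC subunits varied together among pigs of the same breed. After breed and chip had been removed, the median correlation over their 21 pairs was r = 0.65 (21 pigs on 1 platform, range -0.20 to 0.88). The same median over pairs of all genes was not computed. Array brightness was not removed, and the subunits' median correlation with it was 0.66, against 0.19 over all genes. Within chips the median TRiC difference was -0.04, -0.36 and -0.52. CCT4 and CCT7 had r = 0.66 and 0.74 with brightness, and with it in the model they were both at -0.12 (adjusted p = 0.866 and 0.799).

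In mitochondria, both parts of the chaperonin were lower. HSPD1 (HSP60, chr15:101360355-101373498), which forms the folding chamber, was 7.95, 8.67 and 9.09 at the lowest, median and highest DD pig and 8.59, 9.01 and 9.34 in LW pigs, with 4 DD pigs below every LW pig. Its log2 FC was -0.40 ± 0.12 (SE, adjusted p = 0.0257). All 21 oligos had negative values, from -0.51 to -0.22, and 14 were called. HSPE1 (HSP10, chr15:101374019-101376146), the lid of the chamber and the neighbour of HSPD1 in the genome, was 10.94, 11.41 and 11.86 in DD pigs and 11.26, 11.85 and 12.00 in LW pigs. The log2 FC was -0.36 ± 0.12 (SE, adjusted p = 0.0322), with 9 of 10 DD pigs below the LW median.

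HSPD1 and HSPE1 followed each other closely, with r = 0.90 over the 21 pigs after breed and chip had been removed, and had r = 0.64 and 0.68 with brightness. Brightness was not removed for the r of 0.90, and no such value over pairs of all genes was computed. The differences of HSPD1 and HSPE1 were 0.02 and -0.02 on chip 1, and on chip 3 they were -0.78 and -0.76. With brightness in the model they were at -0.13 (adjusted p = 0.847) and -0.09 (adjusted p = 0.912).

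DNAJC19, a co-chaperone of the import motor, was 6.73, 7.20 and 7.50 in DD pigs and 7.22, 7.53 and 7.74 in LW pigs at the lowest, median and highest. All DD pigs were below the LW median, and the log2 FC was -0.31 ± 0.10 (SE, adjusted p = 0.034) with 8 of 8 oligos negative. It had r = 0.51 with brightness and was at -0.15 (adjusted p = 0.763) with brightness in the model. DNAJC15, also of the import machinery, was 8.02, 8.23 and 8.58 in DD pigs and 8.10, 8.49 and 8.73 in LW pigs and did not pass (-0.22, adjusted p = 0.0819). HSPA9 (mortalin), the HSP70 of the import motor, was at -0.05 (adjusted p = 0.794) and DNAJC30 at 0.02 (adjusted p = 0.902). HSPA9 was read by 1 oligo, which was well above background on 9 of 10 DD and 10 of 11 LW arrays. The strand of that oligo was not checked, so that its value may not be that of HSPA9 mRNA. DNAJA3 was 9.96, 10.42 and 10.84 in DD pigs and 9.97, 10.55 and 10.94 in LW pigs (-0.18, adjusted p = 0.285). DNAJC11 was 5.76, 6.75 and 7.08 in DD pigs and 6.46, 6.87 and 7.18 in LW pigs (-0.19, adjusted p = 0.285). The ranges of both genes overlapped.

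**Figure D4:**
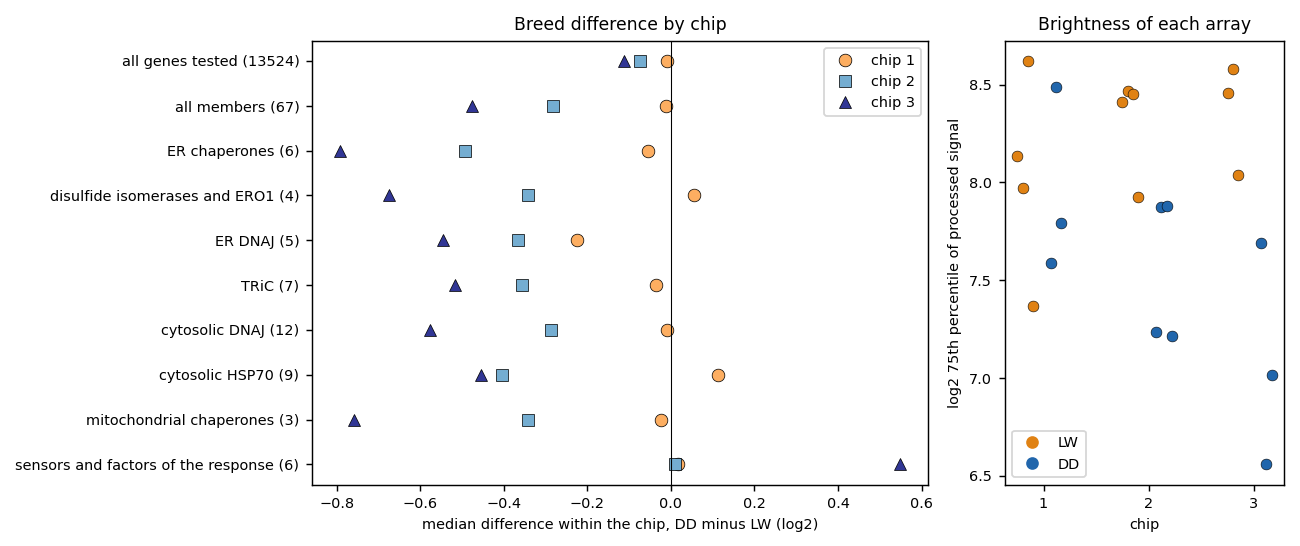
Left, median difference within each chip (DD minus LW, log2, horizontal axis) for all genes and for the member families, with the number of genes in brackets. Right, brightness of each array (log2 75th percentile of the processed signal, vertical axis) by chip, LW in orange and DD in blue. The members' medians go from -0.01 on chip 1 to -0.48 on chip 3, and the gap in brightness between the breeds is also widest on chip 3.

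Array brightness went with the members beyond the breed difference. Of the 18 lower genes all had a positive correlation with it after breed and chip had been removed (median r = 0.65, from 0.16 to 0.79), and the 45 members not called had a median of 0.31. Of the 4 higher genes ERN1 and ATF6B had r = -0.89 and -0.57, CALR had -0.08 and HSP70 had 0.33. Of the lower genes 16 were negative on every chip, but the largest difference was on chip 3 in 14 of 18. These genes were called from the same chips, so that a shared sign across chips was in part given. Over all 67 members the largest difference was on chip 3 in 45, and 57 had a positive r. The median r over all genes was 0.19, and the same counts over all genes were not computed.

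**Figure D5:**
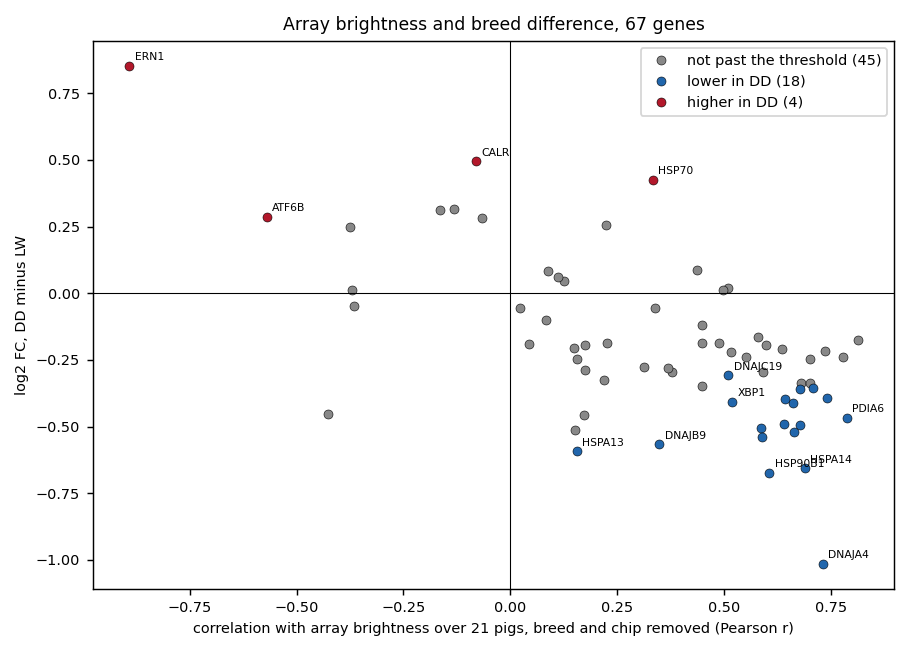
Correlation of each of the 67 members with array brightness over 21 pigs, breed and chip removed (Pearson r, horizontal axis), against the log2 FC (DD minus LW, vertical axis). The lower genes (blue) lie mostly at r above 0.5, with HSPA13 and DNAJB9 at 0.16 and 0.35, and ERN1 lies at -0.89.

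The other genes of these pathways, which the array names under the list of cofactors and stress outputs, gave 14 calls of 53 tested (10 lower, 4 higher), and their median log2 FC was -0.18 (-0.08 over all genes). This is 26.4% called, against 23.5% of all genes. Of 16 ER folding factors 5 were lower and 0 were higher (12.6% and 10.9% of all genes). The lower ones were CRELD2 (-0.50, adjusted p = 0.00349) and SDF2L1 (-0.35, adjusted p = 0.0123), both induced by ER stress, the translocon subunits SEC61B (-0.37, adjusted p = 0.00656) and SEC61A1 (-0.33, adjusted p = 0.0136), and the disulfide isomerase P4HB (-0.32, adjusted p = 0.0369). EIF2AK3 (PERK), the sensor that slows translation, was at -0.61 ± 0.12 (SE, adjusted p = 0.00189), opposite in sign to ERN1. With brightness in the limma model, however, ERN1 was at 0.03 (adjusted p = 0.989). Single partners were not followed in that model or by chip, and only their calls are counted further below.

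Further lower partners were SELS (selenoprotein S), a degradation factor (-0.65, adjusted p = 0.000815), the ubiquitin-conjugating enzyme UBE2J1 (-0.26, adjusted p = 0.0362), the nucleotide exchange factor GRPEL2 of mitochondria (-0.57, adjusted p = 0.00242) and the HSP90 cofactor UNC45A (-0.25, adjusted p = 0.0314). Higher were the HSP70 cofactor BAG1 (0.47, adjusted p = 0.0191), the prefoldin subunit PFDN2 (0.68, adjusted p = 0.0157), the small heat shock protein CRYAB (0.86, adjusted p = 0.0252) and TRAP1, the HSP90 of mitochondria (0.42, adjusted p = 0.0355). HERPUD1 and PPP1R15A, targets of the response, did not pass (0.17 and 0.33, adjusted p = 0.18 and 0.141).

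Blood is a mixture of cells, and in bulk samples fewer cells of a type and less RNA per cell cannot be told apart. The 10 T cell markers tested all had negative values in DD pigs, with a median of -0.29. The 3 called were CD8A at -0.77, CD3G at -0.64 and CD3D at -0.58. The mean level of the 10 ranged from 8.06 to 8.95 in DD pigs and from 8.51 to 9.32 in LW pigs. Their median difference was -0.05, -0.47 and -0.48 on chips 1 to 3. Of 7 erythroid markers 5 were positive and 2 were called (EPB42 at 1.06 and CA1 at 1.02), and their level ranged from 10.43 to 11.96 in DD pigs and from 10.04 to 11.34 in LW pigs. On chips 1 to 3 the erythroid median was 0.36, 0.13 and 1.24. The 2 plasma cell markers tested, PRDM1 and POU2AF1, had -0.05 and 0.10, and the 5 B cell markers had a median of 0.10 with 0 called by limma (adjusted p from 0.281 to 0.881). Of the granulocyte, monocyte and platelet markers 1 each was called, ARG1 higher and CD163 and PPBP lower. The share called lower was 30% of the T cell markers, against 12.6% of all genes, of which 58.5% were negative. The share called higher was 28.6% of the erythroid markers, against 10.9% of all genes. The markers were not followed with brightness in the model. The part of cell composition in the members' differences was not tested.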

How the data were processed

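RNA from PAXgene blood tubes was hybridised to one-colour arrays and scanned with Agilent Feature Extraction (version 10.7.3.1 per the submitters' processing notes). The deposited matrix holds log2 values that the authors had corrected for background with normexp and quantile normalised, after 3 outlier arrays had been removed. The deposited scanner files hold the processed signal intensity of each spot, used here for array brightness, for oligos well above background and for a recomputed matrix. Control spots and the lowest 25% of oligos by mean were removed, and oligos were averaged per gene name. Differences were tested with limma 3.58.1 and statmod 1.5.0 in R 4.3.3, with a term for chip and the litter mother as block through duplicateCorrelation (consensus correlation -0.10). Chip and sow came from the study's supplementary sample list. By rule, the text named every called member and a fixed list of core chaperones and sensors, 42 tested genes in all, with values by pig for the 6 lowest p per compartment. The other members are named only to account for each, and partners and markers come from fixed lists. The members and lists were chosen with earlier results of these data known. The fit was run on simulated data with independent noise for each gene. These data held no litter or brightness effect, so that its behaviour under such effects was not tested. Gene positions and synonyms are from RefSeq (Sscrofa11.1). Alternatives covered normalisation, filters, naming, model terms, chips and single animals.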

Additional observations from a re-analysis of the deposited data

Results flagged for a closer look

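In 8 of the 67 members, 1 DD pig stood far from the other 9 by Dixon's gap criterion, which chance alone meets in about 1 in 20 groups. The LW group of 11 was not examined this way. DD pig 6 was the highest for DNAJB11 (8.603, next 8.041), HSP90B1 (9.99, next 9.317) and HSPA8 (13.28, next 12.74), and its array was the brightest of the DD arrays (8.49). DD pig 16 was the lowest for DERL1 (8.059, next 8.66), DNAJB12 (8.292, next 8.572) and DNAJC11 (5.76, next 6.496), with a brightness of 7.22. DD pig 10 was the highest for HSP90AB1 (8.644, next 6.376) and DD pig 13 for DNAJC8 (6.795, next 5.193). HSP90AB1 and DNAJC8 were each read by 1 oligo, whose strand was not checked. All are chip-adjusted log2 values, and the cause was not tested.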

How the results depend on the processing

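No paired analysis was possible because DD and LW pigs share no replicate numbers. None of the 22 called members changed sign in 15 alternatives. HSPA13, DNAJB9, DNAJB11, HSP90B1, HSPA14 and DNAJA4 lost their call only without chip 3 and with brightness in the model, and in none of the 21 fits without 1 animal, in which HSPE1 lost its call 9 times, DNAJC19 8, CCT4 6 and HSPD1 5. From 4 higher and 18 lower members and 14 partners, the counts went to 0, 0 and 0 without chip 3, to 0, 0 and 1 with brightness and to 1, 8 and 7 without the chip term. Without the chip term 6.27% of all genes were called. Lower members numbered 11 under 75th percentile scaling and 9 without chip 2, and higher members 2 without the filter, without the sow block and without chip 1. The shares of all genes called in these fits were, in the same order, 21.1%, 17.4%, 15.6%, 17.5% and 26.3%. The sow block, whose correlation was negative (-0.10), raised the number of calls. Without it 17 members and 17.5% of all genes were called, against 22 and 23.5% with it. ATF6B, DNAJB13, DNAJC19, HSP70 and HSPA8 lost their call without the block. Leaving out 1 animal gave 1 to 4 higher members, 8 to 30 lower members and 8 to 25 partners, with 8.07% to 37.6% of all genes called. The names in any case, chosen after seeing the data, gave 5 and 19, with DERL3 at 0.51 (adjusted p = 0.0244). The causes were not tested.

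Alternatives were followed gene by gene for the 42 members named by rule, and among these signs turned only in uncalled genes. Some uncalled genes passed in alternatives. With a background offset of 50 these included ATF6, DERL1, PDIA3 and TCP1. With oligos well above background on at least 10 arrays they included ATF6, DERL1, HSPH1 and PDIA3. No member passed without chip 3 or with brightness in the model. Over all 67 members, negative values numbered 51, and 44 with brightness in the model. The log2 FC of CANX was -0.061 with offset 50, -0.19 with the brightest oligo, -0.00036 without chip 1, -0.0057 without chip 2 and -0.044 with brightness, and -0.0071 to 0.041 without 1 animal. The log2 FC of HSPA9 was 0.0033 with offset 50, 0.10 with percentile scaling, 0.027 without chip 1 and 0.11 without chip 2, and -0.14 to 0.0028 without 1 animal. The log2 FC of ATF4 was 0.044 with percentile scaling and 0.21 without chip 2, and -0.15 to 0.091 without 1 animal. The log2 FC of ERO1L was -0.057 and -0.16 without chips 1 and 2, and -0.025 to 0.055 without 1 animal. CCT2 was at 0.13 with the brightest oligo, DDIT3 at -0.078 and DNAJA3 at 0.0096 without chip 3, and DNAJA3 and SYVN1 at 0.16 and 0.15 with brightness.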
